A study of Mus musculus with 8 samples.

Results

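Across 8 B16F10 melanomas, 158 fibroblasts were chosen for UMIs of Pi16, Clec3b or Ptx3, genes known from fibroblasts of the adventitia, the loose connective tissue around vessels and organs. A unique molecular identifier (UMI) stands for 1 captured transcript molecule. Cells were kept with 200 to 5000 genes and at most 7.5% mitochondrial UMIs. Fibroblasts were gated among them by at least 10 UMIs of Col1a1, Col1a2, Col3a1 and Dcn together, under 0.3% of UMIs on the melanoma genes Mlana, Pmel, Dct, Tyr and Tyrp1, and under 3 UMIs on the mural cell genes Rgs5, Kcnj8 and Notch3. A gated fibroblast was a member with at least 2 UMIs of Pi16, Clec3b and Ptx3 together and more of these than of Mmp13, Cxcl14, Cilp and Lrrc15. Of 41925 deposited barcodes 28411 were kept, 561 were gated and 158, from 7 of the tumours, were members, which is 28.2% of the gated fibroblasts and 0.556% of the cells kept. The remaining 403 gated fibroblasts are called the others.

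Adventitial fibroblasts occur in many organs and are held to be a reserve from which specialised fibroblasts arise. Pi16 encodes a secreted peptidase inhibitor, Clec3b encodes tetranectin, a plasminogen-binding protein of the matrix, and Ptx3 encodes a long pentraxin, a soluble pattern recognition molecule that is made on inflammatory stimulation and interacts with complement. In tumours, contractile fibroblasts that build matrix are often set against fibroblasts that secrete cytokines and acute-phase proteins.

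The tumours had reached 300 mm3 from B16F10 cells, a melanoma line of C57BL/6 origin, in hosts labelled as 12 weeks old, and each tumour gave 1 droplet library of 3' transcript ends. Hosts were Atf4wt/wt in 4 tumours and Atf4D/D in 4, and both genotypes carry a tamoxifen-inducible Cre at Rosa26 and received tamoxifen. In Atf4D/D hosts this removes Atf4, the main transcription factor of the integrated stress response, throughout the animal by cutting out exons 2 and 3, so that a difference in fibroblasts cannot be told apart from one passed on by other host cells, while the injected melanoma cells keep the gene. The libraries held 37283598 to 74942137 UMIs in Atf4wt/wt tumours and 40492910 to 55655925 in Atf4D/D tumours, and any pair of libraries shared 2 to 14 barcodes, with 0 members among the repeats.

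In 4 of the 8 libraries the labelled sex went against the sex-linked transcripts of the gated fibroblasts, which were Xist, the RNA of the inactive X chromosome, and the Y-linked Ddx3y, Eif2s3y, Kdm5d and Uty. Among Atf4wt/wt hosts, replicates 1 and 3 are labelled male and held 87 Xist and 0 Y-linked UMIs and 104 Xist and 0 Y-linked UMIs. Replicates 2 and 4 are labelled female and held 0 Xist and 20 Y-linked UMIs and 0 Xist and 19 Y-linked UMIs. The Atf4D/D libraries went with their labels, with 263 Xist and 0 Y-linked UMIs in the female replicate 1, 0 Xist and 52 Y-linked UMIs in the male replicate 2, 0 Xist and 2 Y-linked UMIs in the male replicate 3 and 0 Xist and 141 Y-linked UMIs in the male replicate 4. All samples were kept in the groups their labels give, and the check of genotype by Atf4 itself opens the genotype comparison.

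Most cells qualified through Ptx3. It had a UMI in 146 members (92.4%), against 60 (38.0%) for Pi16 and 59 (37.3%) for Clec3b, and 71 members (44.9%) held Ptx3 without the other two genes. Pi16 or Clec3b was found in 87 members (55.1%), and all 3 genes together in 26 (16.5%). Ptx3 outnumbered Pi16 and Clec3b in 122 members, the reverse held in 32, and 4 had as many of each. By the data, then, these are fibroblasts led by Ptx3, of which some carry the adventitial genes Pi16 and Clec3b. The genes lie on GRCm38 as Ptx3 (chr3:66219910-66225805, plus strand), Pi16 (chr17:29317680-29330593, plus strand) and Clec3b (chr9:123150946-123157432, plus strand). Levels are given as CPM, the UMIs of a gene relative to all UMIs of the class in a tumour, scaled by the trimmed mean of M values within each comparison and not divided by gene length, since a 3' library reads 1 end of a transcript. They are given in the 6 tumours with at least 10 members, listed as replicates 1, 3 and 4 of Atf4wt/wt and 1, 2 and 4 of Atf4D/D. Ptx3 stood at 2507, 2057 and 999 CPM in the Atf4wt/wt tumours and 1735, 1563 and 1533 CPM in the Atf4D/D tumours. Pi16 stood at 1254, 416 and 296 CPM in the Atf4wt/wt tumours and 476, 233 and 119.9 CPM in the Atf4D/D tumours. Clec3b stood at 406, 208 and 62.4 CPM in the Atf4wt/wt tumours and 171, 245 and 161 CPM in the Atf4D/D tumours. Ptx3 varied about its mean the least of the 3 genes, and Pi16 and Clec3b were both highest in Atf4wt/wt replicate 1. Dcn, the matrix proteoglycan decorin, had a UMI in all 158 members and in 378 of 403 others (93.8%). Dpp4, a surface peptidase known from adventitial fibroblasts that the rule did not use, had a UMI in 52 of 158 members (32.9%) and 20 of 403 others (4.96%).

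**Figure D1:**
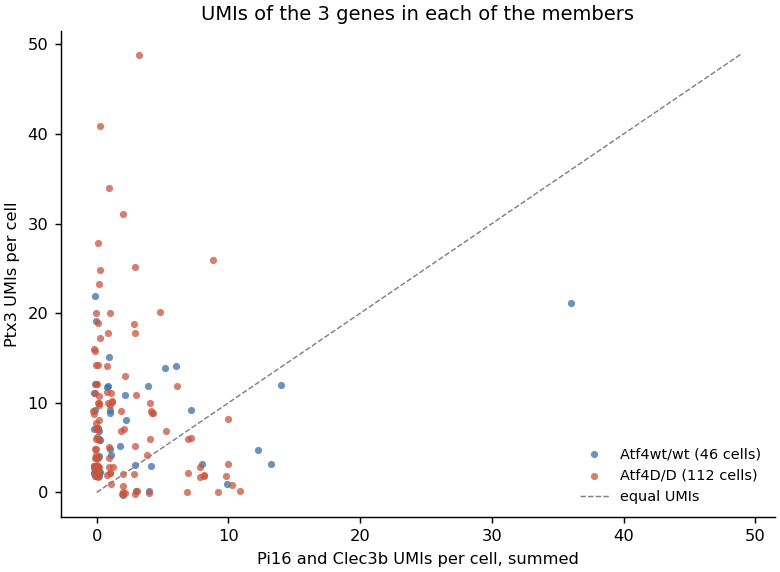
UMIs of Ptx3 (vertical axis) against summed UMIs of Pi16 and Clec3b (horizontal axis) in each of the 158 members, 46 from Atf4wt/wt hosts in blue and 112 from Atf4D/D hosts in red, shifted slightly at random so that points do not hide each other. The 122 cells above the dashed line of equal UMIs are led by Ptx3, and most of them lie close to the vertical axis.

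The rule cuts a range, and cells lie close to its limit. The 3 genes together had a median of 9 UMIs in a member and at most 57, and 77 members had 10 or more. Just inside the limit lay 19 members with exactly 2 UMIs. Just outside it lay 25 others with 1 UMI and none of the 4 opposing genes, and 25 others whose 2 or more UMIs did not exceed those of the 4 genes, while 334 others had 0. Saa3, an acute-phase gene, averaged 65.8 UMIs per 10000 in the 19 members with 2 UMIs and 27.9 in the 25 others with 1, between 103 in members with more and 11.5 in others with 0. Tnc, which encodes the matrix protein tenascin-C, averaged 5.46 and 13.4 at the limit and 3.05 and 24.9 away from it. Cells at the limit lay between for Saa3 and Tnc, as for C3 and Ly6a, but not for Acta2, with 0.799 and 1.98 at the limit and 0.972 and 5.58 away from it. Median depth was 4627.5 UMIs in members and 4528 in others. Melanoma cells were taken as cells rich in the melanoma genes with 0 UMIs of Col1a1, Col1a2, Col3a1 and Dcn. Among 17782 of them, with median depths of 8050.0 to 11472 UMIs by tumour, 0 had 2 UMIs of the 3 genes. That allows a share of up to 0.0169%, and 43 (0.242%) had a Ptx3 UMI, against 46 of the others (11.4%). Melanoma cells that had picked up collagen transcripts were left out by this choice, so stray UMIs in them were not counted. No doublets were removed other than through the melanoma and mural limits.

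Members made up overlapping shares of the gated fibroblasts in the hosts of both genotypes. The shares were 34%, 7.69%, 20.4% and 32% in Atf4wt/wt replicates 1 to 4, from 17 of 50, 2 of 26, 11 of 54 and 16 of 50 cells. They were 28.2%, 26.9% and 32.5% in Atf4D/D replicates 1, 2 and 4, from 29 of 103, 21 of 78 and 62 of 191 cells. Atf4D/D replicate 3 held 0 members among 9 gated fibroblasts, which allows a share of up to 33.3%, and was left out of the test for having under 10. The 7 tumours gave 23.5% ± 12.1 (SD, n = 4) in Atf4wt/wt and 29.2% ± 2.91 (SD, n = 3) in Atf4D/D hosts, and the groups overlapped. The difference of 5.66 percentage points had p = 0.514 in an exact two-sided permutation test, of which the smallest possible value is 0.0571. Its size rested on Atf4wt/wt replicate 2, without which it was 0.390 points, and it was 9.16 points without Atf4wt/wt replicate 1.

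As a share of all cells kept, members took 0.305%, 0.065%, 0.406% and 0.47% in the Atf4wt/wt tumours and 0.984%, 0.589%, 0% and 1.81% in the Atf4D/D tumours. The 0 members among the 3710 cells kept of Atf4D/D replicate 3 allow up to 0.0809%. Of the 4 Atf4D/D tumours, 3 lay above every Atf4wt/wt tumour and 1 below them all. The means were 0.311% ± 0.178 and 0.846% ± 0.761 (SD, n = 4 each), with a difference of 0.535 points and an exact two-sided permutation p of 0.229, or 0.457 adjusted over both shares. Without Atf4D/D replicate 3 the difference was 0.817 points with an exact p of 0.0571, the smallest that 3 against 4 can give, and without replicate 4 it was 0.213 points. Intervals in the plot of shares cover counting error only, and the number of fibroblasts freed by dissociation was not measured.

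**Figure D2:**
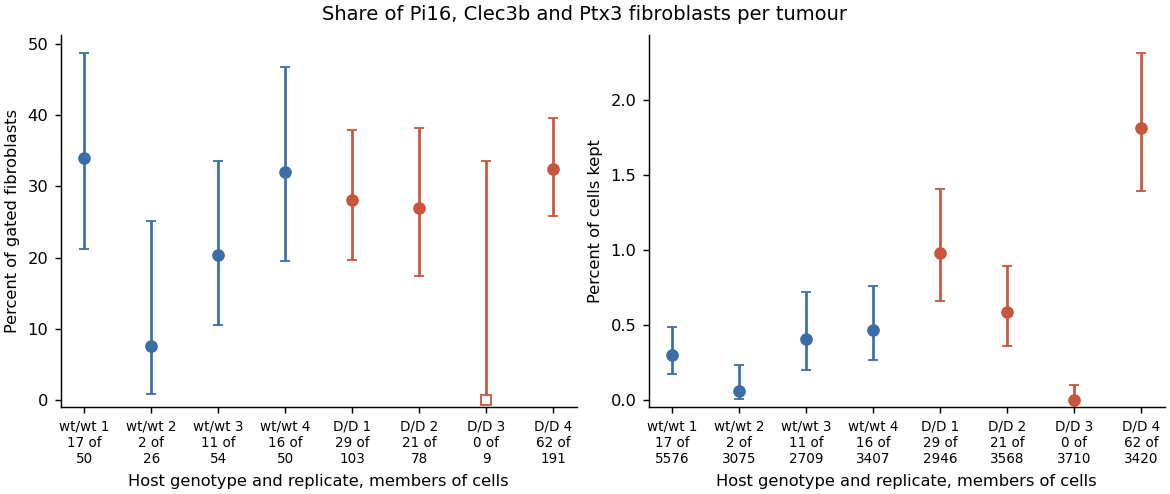
Share of members per tumour, as a percent of gated fibroblasts on the left and of cells kept on the right, with exact 95% Clopper-Pearson intervals, Atf4wt/wt in blue and Atf4D/D in red. The open square is Atf4D/D replicate 3 with 9 gated fibroblasts. On the left the genotypes overlap, and on the right Atf4D/D replicate 4 reaches 1.81% and replicate 3 sits at 0%.

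Outside the genes of the rule, members differed from the others over much of the transcriptome. UMIs were summed per tumour and class and compared with edgeR's quasi-likelihood test with the tumour as a block, and genes of the rule and the gate were left out. Of 2062 genes tested, 246 were higher in members (11.9%) and 181 lower (8.78%) at an adjusted p under 0.05, 20.7% in all (30.3% at an unadjusted p under 0.05), and 328 of these 427 went one way in all 6 tumours. Both classes were cut from the same cells by these genes, so that the counts, and the log2 fold changes with standard errors given for this comparison, are a description of what goes with the rule and not evidence beside it. The median log2 fold change of all genes tested was 0.00.

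Genes known from adventitial and universal fibroblasts were mostly higher in members. Of 34 listed genes 25 were tested, 23 were higher in members and 1 lower, with a median log2 fold change of 1.43. Sema3c stood in members at 177, 185 and 187 CPM in the Atf4wt/wt and 179, 210.0 and 176 CPM in the Atf4D/D tumours, and in the others at 21.5, 13.5 and 0 CPM and 14.6, 4.19 and 26.1 CPM. Sema3c encodes a secreted semaphorin, a guidance cue, and its levels did not overlap between the classes, with a log2 fold change of 3.41 ± 0.30. Ly6c1 stood in members at 689, 578 and 343 CPM in the Atf4wt/wt and 625, 490.0 and 571 CPM in the Atf4D/D tumours, and in the others at 28.6, 117 and 102 CPM and 114, 71.3 and 112 CPM. Ly6c1 and Ly6a, the latter also called Sca-1, encode small anchored surface proteins used as markers of such fibroblasts, and their log2 fold changes were 2.53 ± 0.18 and 1.95 ± 0.14. Adamts5 stood in members at 600.4, 809 and 671 CPM in the Atf4wt/wt and 514, 548 and 569 CPM in the Atf4D/D tumours, and in the others at 21.5, 58.4 and 160.3 CPM and 43.7, 101 and 112 CPM. Adamts5 encodes a protease that cleaves large proteoglycans, and it differed by 2.83 ± 0.20 on the log2 scale. Gsn, which encodes the actin-severing gelsolin, was higher by 1.54 ± 0.14. Outside the list Tnxb, which encodes the matrix protein tenascin-X, was higher by 2.49 ± 0.16. Mfap5, a microfibril gene and the most abundant of the list in members, stood at 1847 ± 548 CPM in members and 1774 ± 175 CPM in others (SD, n = 6 tumours) and did not pass the test. Col15a1, which encodes a collagen near basement membranes, went the other way at -2.09 ± 0.18.

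Most genes of the inflammatory fibroblast list, which holds mainly cytokine and chemokine genes, were higher in members. Saa3 encodes a serum amyloid A protein and was the most abundant gene of the inflammatory list. Saa3 stood in members at 8229, 13541 and 5867 CPM in the Atf4wt/wt and 19327, 6008 and 4271 CPM in the Atf4D/D tumours, and in the others at 1838, 1048 and 277 CPM and 2109, 1186 and 634 CPM. Every member value lay above every other value, and the log2 fold change was 2.998 ± 0.16. Of the inflammatory list 13 of 15 tested genes were higher and 1 lower, with a median of 1.23. Cxcl12 stood in members at 1695, 1202 and 546 CPM in the Atf4wt/wt and 1169, 1003 and 916 CPM in the Atf4D/D tumours, and in the others at 279, 193 and 401 CPM and 172, 281 and 303 CPM. Cxcl12 encodes a chemokine for lymphocytes and bone marrow cells, and it differed by 1.98 ± 0.18, with 1 Atf4wt/wt tumour, replicate 4, in which the classes lay close. Cxcl5 and Cxcl1, chemokines for neutrophils, differed by 2.26 ± 0.22 and 1.32 ± 0.14, Ccl2, a chemokine for monocytes, by 0.86 ± 0.09, and Tnfaip6, which binds hyaluronan, by 1.28 ± 0.13. The lower gene, named after its value was seen, was Il33, a cytokine held in the nucleus, at -1.12 ± 0.16.

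All 5 complement genes that could be tested, of 22 listed, were higher, with a median log2 fold change of 1.34. C3 stood in members at 2331, 1548 and 718 CPM in the Atf4wt/wt and 2152, 2462 and 1396 CPM in the Atf4D/D tumours, and in the others at 429, 229 and 51 CPM and 539, 646 and 398 CPM. C3, the component on which all complement pathways meet, had every member value above every value of the others and differed by 2.19 ± 0.14. C4b differed by 1.92 ± 0.17, C1s1, a protease of the classical pathway, by 1.34 ± 0.19, and Serping1, which inhibits it, by 1.09 ± 0.12. Among the 12 genes with the highest fold changes were 5 others. Lbp, which encodes the lipopolysaccharide-binding protein, differed by 2.61 ± 0.25, Hp, which encodes haptoglobin, by 2.57 ± 0.23, and Serpina3n, a protease inhibitor, by 2.48 ± 0.17. Gda, which encodes guanine deaminase, differed by 2.57 ± 0.34 and Cmah, which encodes an enzyme of sialic acid, by 2.31 ± 0.29.

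The 250 bases before the RefSeq start of Saa3, C3 and Ptx3 are shown because Ptx3 chose most members, Saa3 and C3 were high in them, and C/EBP factors are known at promoters of acute-phase genes. They are examples with a match, out of 11 promoters read, of which 5 held one and those of Pi16, Cxcl1, Serpina3n, Cxcl12, Sema3c and Tnfaip6 held none. Sequences are from RefSeq on GRCm38.p6, 5' to 3' on the strand of the gene, and capitals mark a match to TTGCNNAA or, on the opposite strand, TTNNGCAA. The matches begin at positions -99, -45 and -57 from the start.
Saa3 chr7:46715677-46715926, minus strand: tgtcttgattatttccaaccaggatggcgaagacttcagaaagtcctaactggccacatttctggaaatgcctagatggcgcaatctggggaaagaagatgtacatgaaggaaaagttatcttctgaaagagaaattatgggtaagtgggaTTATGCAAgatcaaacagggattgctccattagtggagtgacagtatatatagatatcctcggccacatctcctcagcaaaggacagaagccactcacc
C3 chr17:57228137-57228386, minus strand: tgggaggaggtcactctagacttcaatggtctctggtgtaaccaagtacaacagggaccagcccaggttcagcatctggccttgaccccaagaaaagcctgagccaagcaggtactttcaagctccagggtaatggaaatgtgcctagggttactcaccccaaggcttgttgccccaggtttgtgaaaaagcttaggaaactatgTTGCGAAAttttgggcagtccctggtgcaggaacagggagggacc
Ptx3 chr3:66219637-66219886, plus strand: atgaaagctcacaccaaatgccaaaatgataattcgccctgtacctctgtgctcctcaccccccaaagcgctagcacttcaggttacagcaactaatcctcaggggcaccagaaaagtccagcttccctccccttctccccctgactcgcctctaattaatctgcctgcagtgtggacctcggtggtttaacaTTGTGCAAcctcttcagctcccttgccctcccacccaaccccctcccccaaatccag
Such a match stood in 9.57% of all 32841 promoters of this length and in 9.93% of the 1632 genes tested that had one. It stood in 37 of 179 promoters of genes higher in members (20.7%) and in 14 of 135 of genes lower (10.4%). A kappaB-type sequence, 3 G, 5 bases of any kind and 2 C on either strand, stood in 59.8% of the former, 70.4% of the latter and 68.1% of the genes tested. Both motifs were chosen with the gene values known, the shares were not tested, and a match is a run of letters and not a binding site.

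Most genes of the activated fibroblast list were lower in members. Of 20 tested genes 13 were lower and 0 higher, with a median of -0.99, and 7 did not pass the test. Spp1 stood in members at 0, 0 and 0 CPM in the Atf4wt/wt and 74.4, 11.7 and 105 CPM in the Atf4D/D tumours, and in the others at 4635, 3111 and 2821 CPM and 3938, 2607 and 6239 CPM. Spp1 encodes osteopontin, a secreted phosphoprotein, and it was the most unequal gene of the list at -6.28 ± 0.20, a size that depends on the count added by the fit to the 3 member sums at 0. Tnc stood in members at 336, 347 and 531 CPM in the Atf4wt/wt and 588, 548 and 189 CPM in the Atf4D/D tumours, and in the others at 3455, 2347 and 2310.4 CPM and 2441, 2289 and 1932 CPM. The classes did not overlap for Tnc, which differed by -2.597 ± 0.15. Acta2 stood in members at 159, 185 and 437 CPM in the Atf4wt/wt and 67, 11.7 and 68.9 CPM in the Atf4D/D tumours, and in the others at 536, 549 and 1042 CPM and 411, 117 and 309 CPM. Acta2 encodes smooth muscle actin and was lower in members within each tumour, by -1.897 ± 0.19, although the classes overlapped between tumours. Tagln and Tpm2, partners of contractile actin, differed by -2.05 ± 0.25 and -1.93 ± 0.19. Inhba, which encodes a subunit of activin, differed by -3.07 ± 0.31 and Tgfb1, a driver of contractile fibroblasts, by -2.200 ± 0.25. The most unequal of the 12 lowest genes was Mgp, which encodes an inhibitor of calcification, at -6.45 ± 0.30, with a UMI in 4 of 158 members (2.53%) and 137 of 403 others (34%) and none in the member sums of 4 of the 6 tumours, so that its size depends on the count added to 0 by the fit. Lox, which encodes a collagen cross-linking enzyme, stood at 1852 ± 579 CPM in members and 1662 ± 292 CPM in others (SD, n = 6 tumours) and did not pass the test.

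**Figure D3:**
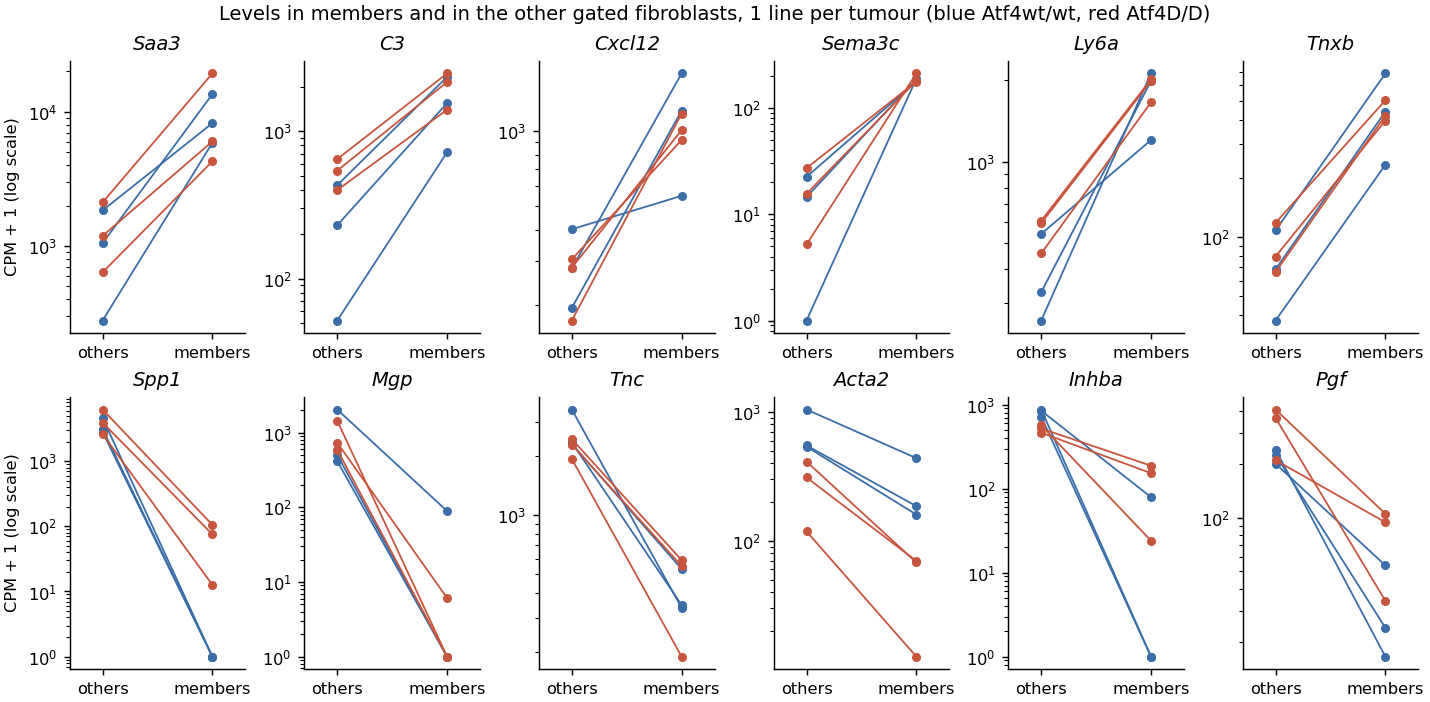
Level of 12 genes in the others and in the members of the same tumour, as CPM + 1 on logarithmic axes with a range of their own for each gene, 1 line per tumour, Atf4wt/wt in blue and Atf4D/D in red. The lines of Saa3, C3, Cxcl12, Sema3c, Ly6a and Tnxb rise and those of Spp1, Mgp, Tnc, Acta2, Inhba and Pgf fall in all 6 tumours.

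Of 24 tested hypoxia and glycolysis genes, 13 were lower in members than in all others and 1 was higher, with a median of -0.42. None of the list passed the test against matrix fibroblasts, and these comparisons were not tested against each other. Pgf stood in members at 53, 23.1 and 15.6 CPM in the Atf4wt/wt and 104, 93.3 and 33.2 CPM in the Atf4D/D tumours, and in the others at 200.3, 225 and 241 CPM and 405, 209.6 and 363 CPM. Pgf encodes placental growth factor and differed by -2.54 ± 0.25, Vegfa, the main endothelial growth factor, by -1.16 ± 0.17, Ndrg1 by -1.51 ± 0.16, and Slc2a1, a glucose transporter, by -1.31 ± 0.18. Gapdh, the glycolytic enzyme gene with most UMIs of the list, differed by -0.44 ± 0.09, while Ldha at -0.02 ± 0.10 and Mif at -0.06 ± 0.10 did not pass the test. The higher gene, named after its value was seen, was Adm, which encodes the vessel-acting peptide adrenomedullin, at 1.15 ± 0.22. Against matrix fibroblasts, the 150 others with at least 2 UMIs of Mmp13, Cxcl14, Cilp and Lrrc15 and more of these than of Pi16, Clec3b and Ptx3, 0 of 20 were higher and 0 lower by edgeR, 3 had an unadjusted p under 0.05, and the median was -0.01. The remaining 253 others were of neither class. With cells holding 3 or more UMIs of Pgf, Ndrg1 and Ero1l left out of both classes, 208 of 1160 genes passed the test, of which 181 were among the 302 genes called with all cells that could be tested here, and 296 of these 302 had the same direction. Inhba then stood at -1.84 on the log2 scale, and Fos no longer passed at 0.43.

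Among genes of the extracellular matrix the direction differed by family. Of collagen chains other than those of the gate, 1 of 14 was higher and 7 were lower, with a median of -0.37. Col14a1, which encodes a fibril-associated collagen, was the higher gene at 1.54 ± 0.16, while the collagen VI genes Col6a1 and Col6a3 differed by -0.998 ± 0.12 and -0.88 ± 0.10. Of the gate's own collagens, Col1a1 stood at 12419 ± 3825 CPM in members and 12299 ± 2732 in others, and Col3a1 at 20558 ± 4174 and 11485 ± 2554 (SD, n = 6 tumours). Of genes of collagen processing, 4 of 21 tested genes were higher and 1 lower, with a median log2 fold change of 0.05, and Serpinh1, the collagen chaperone, was the one with most UMIs at 2396 ± 418 CPM. The cross-linking enzyme genes Loxl1 and Loxl3 went opposite ways at 0.59 ± 0.13 and -1.11 ± 0.19. Of proteoglycans, 6 of 11 tested genes were higher and 2 lower, with a median log2 fold change of 0.42. Ogn, which encodes osteoglycin, differed by 2.18 ± 0.18, Prelp by 1.804 ± 0.23, Vcan, which encodes versican, by 0.91 ± 0.12 and Prg4, the lubricant of joints, by 1.99 ± 0.18, while Bgn, which encodes biglycan, differed by -0.74 ± 0.09. Of elastic fibre and microfibril genes, 5 of 12 tested genes were higher and 1 lower, with a median log2 fold change of 0.203, with Efemp1 at 2.08 ± 0.29 and Fbln1 at 1.604 ± 0.22, both fibulin family genes, and Ltbp2, which encodes a TGF-beta binding protein of microfibrils, at -2.12 ± 0.24. Of proteases and their inhibitors, 7 of 17 tested genes were higher and 4 lower, with a median log2 fold change of 0.26. Adamts1 differed by 1.24 ± 0.16, the membrane collagenase gene Mmp14 by -0.900 ± 0.15 and the inhibitor genes Timp1 and Timp3 by -0.37 ± 0.11 and -0.98 ± 0.16.

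**Figure D4:**
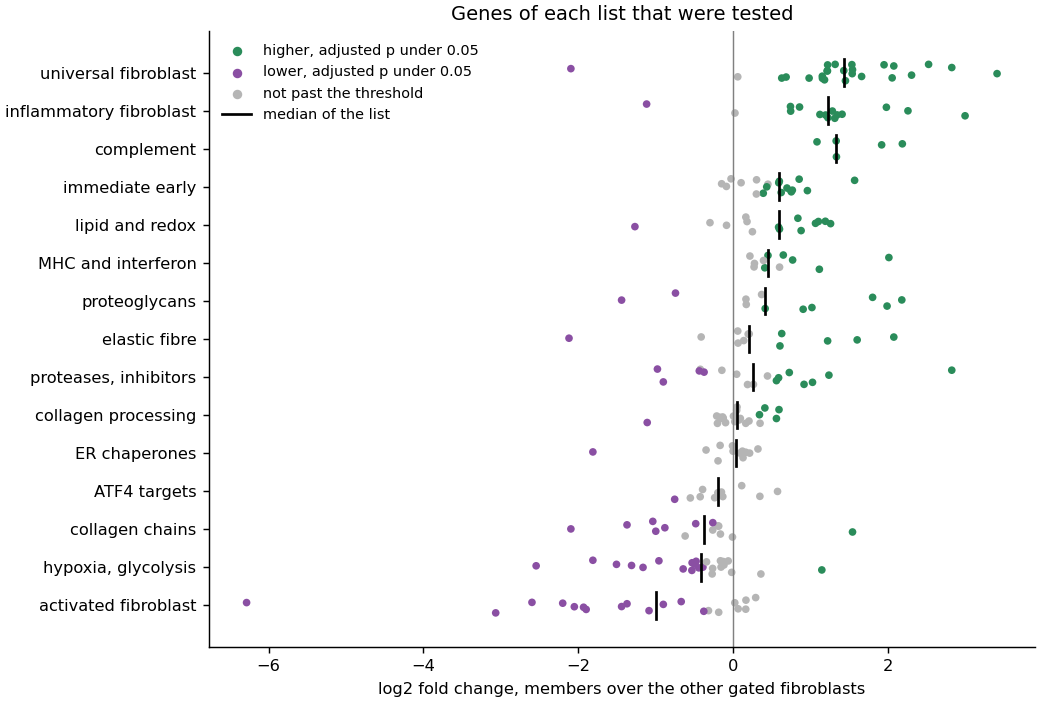
Log2 fold change of members over the others (horizontal axis) for each tested gene of 15 lists (rows), green where higher and purple where lower at an adjusted p under 0.05, grey where not past it, with a black bar at the list's median. The medians run from 1.43 for universal fibroblast genes to -0.99 for activated fibroblast genes, beside 0.00 for all genes tested.

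In the TGF-beta, BMP and Wnt list 6 of 9 tested genes were higher and 2 lower, with a median log2 fold change of 0.69. The receptor gene Tgfbr2 differed by 1.46 ± 0.15 and Fstl1, which encodes a secreted binder of the family, by 0.92 ± 0.09. The 2 lower genes were Tgfb1 and Inhba, given with the activated fibroblast genes. Of angiogenic factors, 5 of 12 tested genes were higher and 2 lower, with a median log2 fold change of 0.36, and Vegfd, a ligand of lymphatic growth, differed by 2.14 ± 0.24. Thbs1, which encodes thrombospondin-1, an inhibitor of vessel growth and the gene with most UMIs there, did not pass the test at 0.18 ± 0.12. In the insulin-like growth factor list 2 of 7 tested genes were higher and 1 lower, with a median log2 fold change of 0.00, with Htra3, a secreted protease, at 2.15 ± 0.18 and Igfbp6 and Igfbp7, binding proteins, at 1.32 ± 0.16 and -0.51 ± 0.11. Igfbp7 stood at -0.15 and did not pass against others without any UMI of the 7 genes of the rule, where Mt1, given with the redox genes, was 0.25. Without the tumour term Igfbp7 kept its size at -0.53 with an adjusted p of 0.0755 by edgeR. Immediate early genes, which respond within minutes to stimuli and to tissue dissociation, were higher in 12 of 19 tested, with a median of 0.59. Klf4 differed by 1.57 ± 0.16, Egr1 by 0.75 ± 0.11 and Fos by 0.697 ± 0.11, and the part of dissociation in this and in the cytokine genes was not tested. Of lipid and redox genes, 8 of 14 tested genes were higher and 1 lower, with a median log2 fold change of 0.59, including the metallothioneins Mt1 at 0.601 ± 0.07 and Mt2 at 0.88 ± 0.09 and the peroxidase gene Gpx3 at 1.07 ± 0.11. Of MHC and interferon genes, 6 of 11 tested genes were higher and 0 lower, with a median log2 fold change of 0.45, with Ifi27l2a at 2.01 ± 0.18, Irf7 at 1.12 ± 0.24 and Bst2 at 0.77 ± 0.14, all induced by interferon. Of targets of ATF4 and genes of the stress response, 0 of 11 tested genes were higher and 1 lower, with a median log2 fold change of -0.196, beside 8.78% lower over all genes tested. The gene of that list past the threshold was Nupr1, which encodes a stress-induced chromatin protein, at -0.75 ± 0.18, and Cebpb, a C/EBP factor gene, did not pass at 0.35 ± 0.14, while it was higher against the matrix fibroblasts described next, at 0.704 ± 0.16. Of endoplasmic reticulum chaperones, 0 of 12 tested genes were higher and 1 lower, with a median log2 fold change of 0.05, and of proliferation genes 0 of 8 were higher and 0 lower, with a median of -0.13.

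Against the matrix fibroblasts alone, the mirror image of the rule, 150 of 1275 genes were higher in members (11.8%) and 59 lower (4.63%), 16.4% in all. This too describes classes cut from the same cells. Saa3 stood in members at 8376, 13884 and 5891 CPM in the Atf4wt/wt and 19144, 6034 and 4318 CPM in the Atf4D/D tumours, and in the matrix fibroblasts at 0, 432 and 249 CPM and 1294, 437 and 992 CPM. The log2 fold change of Saa3 was 4.01 ± 0.36, and those of Sema3c, C3 and C4b were 3.12 ± 0.40, 2.13 ± 0.23 and 2.08 ± 0.21. Serpinb2, which encodes an inhibitor of plasminogen activators, differed by 2.02 ± 0.30 and Ackr3, a scavenging receptor of Cxcl12, by 1.92 ± 0.29. Among lower genes were Mgp at -6.82 ± 0.36, Spp1 at -5.35 ± 0.31, both with member sums at 0, and Acta2 at -2.32 ± 0.25. All 5 complement genes tested were higher with a median of 1.53, 19 of 23 universal fibroblast genes were higher with a median of 1.21, and 11 of 18 activated fibroblast genes were lower with a median of -0.91, beside -0.02 over all genes tested.

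Members led by Ptx3 were also set against those led by Pi16 and Clec3b. The 122 led by Ptx3 had a median depth of 5011 UMIs and the 32 led by Pi16 and Clec3b of 3555, so the tumours with at least 5 of each, 1 Atf4wt/wt and 3 Atf4D/D, were compared on summed counts. Of 768 genes tested 7 differed (0.911%), as a description of the classes, of which 2 were higher in cells led by Ptx3 (0.26%) and 5 lower (0.651%). Tnc stood at 429, 660.1, 711 and 210.0 CPM in the cells led by Ptx3 and 155, 149, 159 and 83.3 CPM in those led by Pi16 and Clec3b, for Atf4wt/wt replicate 1 and Atf4D/D replicates 1, 2 and 4. Cxcl2, a chemokine for neutrophils, stood at 429, 995, 420.2 and 493 CPM in the cells led by Ptx3 and 0, 224, 264 and 133 CPM in those led by Pi16 and Clec3b. Both were higher in the cells led by Ptx3 in all 4 tumours. Igfbp4, which encodes a binding protein of insulin-like growth factors, stood at 177, 88, 145 and 79.1 CPM in the cells led by Ptx3 and 852, 411, 793 and 317 CPM in those led by Pi16 and Clec3b, a log2 fold change of -2.18 ± 0.29. Htra3 differed by -2.22 ± 0.35, Prg4 by -1.51 ± 0.25, Lbp by -1.47 ± 0.30 and Fbn1, which encodes fibrillin-1, by -0.88 ± 0.17, all lower in the cells led by Ptx3. The subsets were cut by the rule's own genes, DESeq2 called 3 and edgeR without the tumour term 0, and the count ran from 0 without Atf4D/D replicate 2 to 15 without Atf4D/D replicate 4, with 1 without Atf4wt/wt replicate 1 and 3 without Atf4D/D replicate 1. With only the members led by Pi16 and Clec3b set against the others, 168 of 1537 genes differed, and of the 363 genes called with all members that could be tested 353 had the same direction and 146 were called again. There Saa3 stood at 1.76 on the log2 scale, and Timp3 at -0.20, Igfbp7 at -0.11, Mt1 at 0.25 and Tagln at -1.197 were smaller and no longer passed. Loxl1 at 0.66, Loxl3 at -0.91, Mt2 at 0.70, Bst2 at 0.65 and Nupr1 at -0.82 did not pass either, at sizes close to those with all members.

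Defining markers of most other cell types were at or near 0 in members. Summed over 12 melanoma markers outside the gate, members held 565, 439, 296, 261, 467 and 265 CPM and the others of the same tumours 286, 297, 394, 315, 394 and 261 CPM, with Gpnmb the most abundant. Macrophage markers, of which 11 of 14 were detected, summed to 795, 116, 93.6, 52.1, 152 and 166 CPM, with Apoe the most abundant, and Atf4wt/wt replicate 1 stood apart, while C1qa, C1qb and Adgre1 were at 0. The others held 207, 71.9, 109, 131, 184 and 98.7 CPM of them. Endothelial markers were detected in 5 of 12 with Pecam1, Cdh5 and Kdr at 0, lymphoid markers in 1 of 14, and keratinocyte markers in 1 of 12. Mural markers outside the gate summed to 623 ± 192 CPM in members and 948 ± 187 CPM in others (SD, n = 6 tumours), most of it Ndufa4l2, with Myh11 and Des at 0 in members. Schwann cell markers, of which 4 of 10 were detected, summed to 119.9 ± 54 CPM in members and 219 ± 44.7 CPM in others, most of it Ncam1, which encodes an adhesion molecule and was lower in members at -1.06 ± 0.22. Mesothelial markers were detected in 3 of 10, muscle and adipocyte in 2 of 12 and erythroid in 1 of 6, and Sox2, Msln, Adipoq and Hbb-bs were at 0. The part of these transcripts in the class and genotype comparisons was not tested.

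Atf4 itself was lower in the fibroblasts of Atf4D/D hosts and checks the genotype labels, since the last exon that 3' libraries read (chr15:80256634-80257541, GRCm38) is within the part cut out. In the others, with CPM here not scaled between tumours, it stood at 281, 278, 317 and 342 CPM in Atf4wt/wt replicates 1 to 4 and 132, 95.8, 182 and 53.9 CPM in Atf4D/D replicates 1 to 4. The groups did not overlap, at 304 ± 30.7 and 116 ± 54.2 CPM (SD, n = 4 each), with an exact two-sided permutation p of 0.0286, the smallest possible. In members it stood at 392, 91.8 and 129 CPM, from 22, 4 and 8 UMIs, and 78.7, 67.7 and 35.6 CPM, from 11, 6 and 14 UMIs. The member groups did not overlap either, with p = 0.1 by the same exact test, the smallest that 3 against 3 allow. Atf4 was thus not at 0 in Atf4D/D members, whose melanoma marker UMIs would bring with them 1.55, 1.66 and 3.91 Atf4 UMIs at the ratio found in melanoma cells. The melanoma cells, which keep the gene, held 249.5 to 408 CPM.

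Within members, no gene passed the threshold for host genotype. With edgeR 0 of 1204 genes were called (0%), 78 had an unadjusted p under 0.05 (6.48%), and DESeq2 called 2. The levels of the genotypes did not overlap for 150 genes (12.5%). Acta2 stood at 155, 185 and 445 CPM in the Atf4wt/wt tumours and 65.2, 11.6 and 68.6 CPM in the Atf4D/D tumours, with a log2 fold change of -2.22 ± 0.50 and an adjusted p of 0.214. It was lower in every Atf4D/D tumour than in any Atf4wt/wt tumour. Without the filter on low counts edgeR called 19 genes, Acta2 among them with an adjusted p of 0.000998 and Ccnd2 with 0.042. With the replicate number as a block edgeR also called Acta2 (-2.22, adjusted p 0.000403), though these numbers were not taken as pairs. Ccnd2 stood at 121, 162 and 111 CPM in the Atf4wt/wt tumours and 297, 312 and 356 CPM in the Atf4D/D tumours, at 1.34 ± 0.28 and an adjusted p of 0.175. Ccnd2 encodes cyclin D2 of the cell cycle and was higher in every Atf4D/D tumour. Rpl22l1 stood at 1000.3, 1110.3 and 970.1 CPM in the Atf4wt/wt tumours and 544, 521 and 468 CPM in the Atf4D/D tumours, at -1.01 ± 0.20 and an adjusted p of 0.161, and DESeq2 called it at an adjusted p of 0.0431. Rpl22l1 is a relative of the ribosomal protein gene Rpl22, and how reads were assigned between them was not tested. Without Atf4D/D replicate 4, edgeR called 1 gene.

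The collagen genes that mark the gate stood at overlapping levels, given as a description since the cells were chosen by them. Col1a1 stood at 8485, 8073 and 14853 CPM in the Atf4wt/wt tumours and 12901, 18129.6 and 11609.9 CPM in the Atf4D/D tumours, with a log2 fold change of 0.44 ± 0.26, and that of Col1a2 was 0.36 ± 0.24. Pdgfrb, a receptor of fibroblasts and mural cells, fell under the filter on low counts, at 69, 92.5 and 47.7 CPM in the Atf4wt/wt tumours and 72.5, 69.4 and 38.1 CPM in the Atf4D/D tumours. Of 196 tested genes of any list edgeR called 0 and 17 had an unadjusted p under 0.05, 11 of them higher in Atf4D/D. List medians were -0.35 over 6 tested ATF4 targets, 0.07 over 24 universal fibroblast genes, 0.14 over 16 inflammatory genes, 0.37 over 5 complement genes, 0.11 over 12 collagen chains and 0.01 over 11 activated fibroblast genes, beside 0.00 over all genes tested. Only 6 of 43 listed ATF4 targets were abundant enough to test. With 3 tumours a genotype and 11 to 62 members in each, an adjusted p above 0.05 does not show that levels were alike.

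The genotype difference of members was also set against that of the others by an interaction term, with tumours as blocks. Of 2709 genes 1 was called (0.0369%), while 134 had an unadjusted p under 0.05 (4.95%) and DESeq2 called 0. Cxcl10, which encodes a chemokine induced by interferon, stood in members at 105, 22.6 and 15.7 CPM in Atf4wt/wt and 418, 57.8 and 168 CPM in Atf4D/D tumours. In the others it stood at 114, 13.6 and 228 CPM and 32.5, 33.6 and 46.8 CPM. Atf4D/D replicate 1 was the highest member sum, and both classes overlapped between genotypes. The difference of the log2 fold changes was 3.72 ± 0.66, with an adjusted p of 0.00444 by edgeR. It passed no longer with DESeq2, with the stricter melanoma limit, or without Atf4wt/wt replicate 4, Atf4D/D replicate 1 or Atf4D/D replicate 4, where its adjusted p was 0.105 to 0.9998 and the difference itself 3.401, 2.87, 2.395, 2.96 and 4.22 in that order. The count of calls was 9 without Atf4wt/wt replicate 4, 3 without Atf4D/D replicate 2, 2 without Atf4wt/wt replicate 1, and 0 without Atf4D/D replicate 1 or 4. Efemp1 and Igfbp5 followed by p at -2.89 ± 0.65 and 3.198 ± 0.83, with adjusted p of 0.0793 and 0.262, and edgeR called Efemp1 without Atf4wt/wt replicate 4 (-3.11, adjusted p 0.00798) and without Atf4D/D replicate 2 (-3.05, adjusted p 0.0231). Spp1 was at 0 in the members of all 3 Atf4wt/wt tumours, where 3 counts over the group would make 18.5 CPM, and at 74.6, 11.6 and 104 CPM in Atf4D/D, with an adjusted p of 0.0793, or 0.0231 without Atf4D/D replicate 2.

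**Figure D5:**
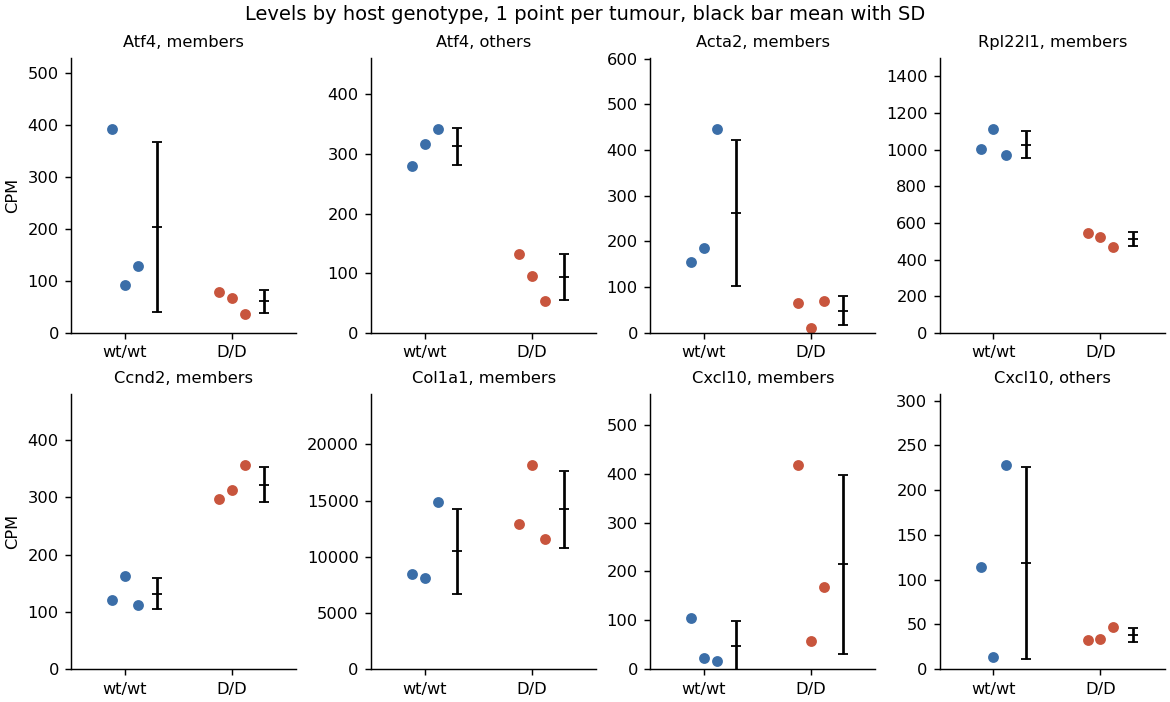
Level by host genotype of Atf4 in members and others, of 4 further genes in members and of Cxcl10 in members and others, in CPM, 1 point per tumour in 3 Atf4wt/wt and 3 Atf4D/D tumours, black bars the mean and SD, cut at 0. Acta2, Rpl22l1 and Ccnd2 do not overlap between genotypes, Col1a1 and Cxcl10 do, and none of the first 3 passed edgeR's adjusted threshold.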

How the data were processed

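Single-cell transcriptomes of 8 large B16F10 tumours, 4 per host genotype, were analysed from the deposited tables. According to the processing notes of the submitters, Cell Ranger 3.1.0, Seurat 3.2.1 and GRCm38 were used, and the authors deposited raw UMI counts per gene and called barcode for each tumour, without normalization. The labels name the V3 chemistry and an age of 12 weeks, from which the study's methods differ. Groups came from the labels. Members, gene lists and motifs were chosen with earlier results of these data known.

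Counts were summed per tumour and class with at least 10 cells (5 for the subsets of members, since 0 tumours had 10 of both) and fitted with edgeR 4.0.16 in R 4.3.3: filterByExpr, TMM, quasi-likelihood test, Benjamini-Hochberg adjustment over all genes tested, threshold 0.05. Shares and Atf4 were compared over tumours by exact permutation (scipy 1.17.1). DESeq2 1.42.0 and the other settings of the closing section were alternatives. Cells were never replicates, no doublet caller was run, and a count of 0 is given the limit of 3 counts. Summed members held 43574 to 393097 UMIs per tumour, and chi-square per gene between replicates was 1.72 to 2.38, above counting noise. On simulated counts with 4-fold changes, 183 of 183 changed genes were recovered for genotype (1251 genes run) and 168 of 168 for members against others (2102 genes run), with 9 and 14 false calls. The simulation gave all genes the same dispersion and all tumours the same mean profile, so it does not show what share of such changes the data would yield. In the data Acta2, at -2.22 on the log2 scale for genotype, had an adjusted p of 0.214 by edgeR.

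Named genes follow a rule: those of the gate and the study, the 12 highest and 12 lowest per comparison at 100 CPM or more that moved one way in every tumour, the 5 with the smallest p where under 5 passed, and of each of 30 lists the 4 most abundant and the 4 with the smallest p. Il33 and Adm fall outside it. Some genes that the rule names are not reported here.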

Additional observations from a re-analysis of the deposited data

Results flagged for a closer look

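Among 51 sets of values, 3 held a tumour set apart from the rest beyond Dixon's 95% limit, where chance gives about 1 in 20. Most sets were a gene's log2 ratio between classes in 6 tumours, with 10 CPM added. The remaining sets were shares of members in the 4 tumours of a genotype. All 3 flagged sets were log2 ratios. For Tnxb the gap was 0.818 of the range, from 701, 450.2, 235, 391, 504 and 423 CPM in members and 12.1, 108, 44, 122, 158 and 83 CPM in matrix fibroblasts, in the order used throughout, with Atf4wt/wt replicate 1 apart. For Ly6c1 it was 0.652, from 701, 592, 345, 619, 492 and 578 CPM in members and 24.3, 180.2, 73.3, 115, 83.6 and 216 CPM in matrix fibroblasts, again with Atf4wt/wt replicate 1 apart. For Lbh, which encodes a transcriptional regulator, it was 0.645, from 71.9, 0, 109.7, 73.7, 58.6 and 43.8 CPM in members and 121, 168, 161, 129, 139 and 178 CPM in matrix fibroblasts, with Atf4wt/wt replicate 3 apart. The genotype difference of Cxcl10 in members differed from that in the others by 3.72 on the log2 scale (edgeR, adjusted p = 0.00444), as given with its levels.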

How the results depend on the processing

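Of the recalculated counts and shares 70 stayed within 1.5 times the value given, or on the same side of the test, and 25 did not. Part of this agreement was fixed beforehand. No recalculated share among gated fibroblasts could pass, since the smallest possible exact permutation p was 0.0571 to 0.133. Shares among cells kept could not pass with a tumour left out, where it was 0.0571. A difference of 0.390 points thus counted as the same as 5.66. Runs with at least 5 cells repeated the given fit for genotype, interaction and members against others or matrix fibroblasts. Of the recalculated values of named genes 1676 kept their call, 79 lost it, 10 gained it and 0 changed direction. Host genotype in members gave 2 calls with DESeq2, 19 without the filter on low counts and 7 with the replicate number as a block, and 0 to 1 with each tumour left out (1 without Atf4D/D replicate 4). Members against others gave 673 calls without the filter (272 higher and 401 lower), 220 with each cell thinned to 2000 UMIs, 168 with only members led by Pi16 and Clec3b, 208 without cells rich in Pgf, Ndrg1 and Ero1l, and 328 to 449 with a tumour left out. Members against matrix fibroblasts gave 340 without the filter, 96 thinned, and 149 to 220. The interaction gave 0 calls with DESeq2, 0 with the melanoma limit at 0.1%, and 0 to 9. Members led by Ptx3 against those led by Pi16 and Clec3b gave 3 with DESeq2, 43 without the filter, 31 with the melanoma limit at 0.1%, 0 without the tumour term, and 0 to 15. Thinned and restricted sets also tested fewer genes, and for the other changes the cause was not tested. The difference in shares lay between 0.390 and 9.16 points among gated fibroblasts and between 0.213 and 0.817 among cells kept with a tumour left out.

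The replicate numbers were not taken as pairs: same-numbered tumours of the genotypes shared 2 numbers, with correlations of member deviations of 0.0458 and 0.148. Without the filter the median of all genes moved to 0.33 for genotype, -0.16 against the others and 0.53 between the subsets. At least 20 cells per tumour could not be run for genotype, interaction or subsets. Restrictions of members or others to subsets of cells, and leaving out the 2 hosts labelled female among those tested, of which Atf4wt/wt replicate 4 held Y-linked and no Xist UMIs, were chosen after seeing the data. Acta2 passed for genotype with the replicate block (adjusted p = 0.000403). Genes under about 100 CPM rest on few UMIs per tumour, above all in Atf4wt/wt members.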
